A study of Homo sapiens with 12 samples.

Results

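The genes for the proteins of the cytosolic ribosome were examined for HSF1 and for acetylated histone H3 at their starts in Huh7 cells. Members were the protein-coding genes of GENCODE release 44 on chromosomes 1 to 22 and X whose symbol is that of a cytosolic ribosomal protein (RPL or RPLP for the large subunit, RPS or RPSA for the small subunit). This gave 81 RP genes, 49 of the large and 32 of the small subunit, among 19970 protein-coding genes. The symbols also take in 4 paralogs that are not part of the standard ribosome, RPL3L, RPL10L, RPL39L and RPS27L, and leave out some made as fusions, such as FAU, which carries a ribosomal protein behind a ubiquitin-like part. A gene was called bound when the summit of an HSF1 peak lay within 1 kb of any of its annotated transcript starts. A gene without such a peak is called unbound below, which says only that no peak was called at its starts at this depth.

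The data were peak lists from CUT&Tag, in which an antibody tethers a transposase to its target so that the DNA nearby is cut and tagged for sequencing. Both libraries came from Huh7, an established human hepatocellular carcinoma line of wild-type genotype that received no treatment, and 1 library was made with an antibody against HSF1 and 1 with an antibody against H3K27ac, which served the study as its positive control. The H3K27ac list is taken as such from its sample's labels, but the name it was deposited under also mentions HSF1, and this was not settled, so every H3K27ac value below rests on the label. Each group held 1 library, so no value below has a replicate check and no test between samples was possible. Sequencing gave 3604911 tags for HSF1, and 2712212 of them (75.2%) were kept as non-duplicates, with 7129 peaks on the chromosomes used. For H3K27ac it gave 15737890 tags, but no more than 896393 (5.70%) were kept, with 1291 peaks. Peaks were called without a control library, and the library made without a primary antibody was not analysed here, so HSF1 signal and cutting of open chromatin cannot be told apart at any single promoter. Intervals below are 95% Wilson intervals for shares and 95% Newcombe intervals for differences of shares. They cover counting error only, and genes of a family are not replicates of one another.

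Markers of the cell type gave little to go on in these lists. None of 10 hepatocyte markers (among them ALB, APOA1, TTR and AFP) had an H3K27ac peak at a start, where 3.32% of all protein-coding genes had one. APOB and HNF4A had an HSF1 peak, or 20% of the 10, beside 25.5% of all protein-coding genes. Of 14 markers of leukocytes, stromal, endothelial and bile duct cells, none had an H3K27ac peak, and COL1A1 and EPCAM had an HSF1 peak (14.3%). At these background shares, lists of 10 and 14 genes cannot show the cells' identity, and the absence of H3K27ac at a gene says little.

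Ribosomal proteins are needed in matched amounts, and their genes are transcribed strongly in nearly every cell. Most of their promoters lack a TATA box and start transcription at a C within a run of pyrimidines, which gives the messenger the 5' terminal oligopyrimidine (TOP) tract through which mTOR signalling controls its translation. HSF1 is the main transcription factor of the heat shock response, binds inverted repeats of GAA called heat shock elements, and in tumour cells also occupies genes of growth and protein synthesis outside heat stress. CCAAT is the core of the site of NF-Y, another promoter factor.

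HSF1 peaks lay at 32 of the 81 RP genes, or 39.5% (29.6% to 50.4%), beside 25.5% of all protein-coding genes. The difference between RP genes and the other protein-coding genes was 14.05 percentage points (4.09 to 24.96). Of the large subunit genes 18 of 49 were bound (36.7%, 24.7% to 50.7%), and of the small subunit genes 14 of 32 (43.8%, 28.2% to 60.7%). The difference of large minus small subunit was -7.0 percentage points, with an interval from -27.8 to 13.9 that spans 0, so these counts do not separate the subunits and leave room for a gap of that size either way.

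Other housekeeping families gave shares of a like size. Genes for mitochondrial ribosomal proteins, which are encoded in the nucleus and make up the ribosome of mitochondria, were bound in 27 of 78 cases (34.6%), 4.89 percentage points below the cytosolic RP genes (interval of the difference -9.97 to 19.4). Genes with proteasome symbols (PSMA to PSMG, assembly chaperones included) were bound in 20 of 48 cases (41.7%), and the RP genes differed from them by -2.16 percentage points (-19.4 to 14.7). Both intervals span 0. Of 22 other genes of translation and of the TOP class, 14 were bound (63.6%, 43.0% to 80.3%), and the RP genes lay below them by a difference of -24.13 percentage points (-43.5 to -0.755). These 22 genes, FAU among them, had a median of 13.5 annotated starts and 8.05 kb of sequence within 1 kb of a start. RP genes had medians of 8 and 4.01 kb, so the 22 offered more sequence in which a summit counts. Whether this bears on the difference was not tested. RNA levels were not analysed here, so RP genes were not set beside genes of equal expression.

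The base composition and layout of the starts differed between RP genes and the rest. From 150 bp upstream to 50 bp downstream of the canonical start, the median GC content of RP genes was 60.7%, against 65.7% for all protein-coding genes. Among starts of 50% to below 60% GC, 11 of 30 RP genes were bound (36.7%), against 19.7% of all coding genes in that range. Among starts of 60% to below 70% GC the counts were 19 of 42 RP genes (45.2%) and 35.2% of all coding genes. The ranges at either end hold few RP genes. Below 50% GC 1 of 4 was bound (25%), against 4.43% of all coding genes, and at 70% GC or more 1 of 5 (20%), against 28.2%, so the RP share was the lower one there. RP genes had a median of 8 annotated starts per gene against 5 for all coding genes, but these starts lie close together, and the sequence within 1 kb of any of them had a median length of 4.01 kb against 4.63 kb. RP genes thus had more starts, and slightly less sequence near a start, than coding genes at large.

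The peaks at bound RP genes were of ordinary height for this library. The pileup, which counts the extended tags that overlap at the summit, ranged from 9 to 27 with a median of 12.5, against a median of 14 over all 5095 bound protein-coding genes. The fold enrichment, the ratio of that pileup to the local background with 1 added to each, ranged from 5.00 to 10.37 with a median of 6.97, against 7.29. Of the 32 bound members, 11 lay above the median fold enrichment of all bound coding genes, 5 above its upper quartile and 8 below its lower quartile. The large and small subunit genes had median fold enrichments of 6.97 and 6.89 and median pileups of 14 and 11. Bound mitochondrial ribosomal protein genes had medians of 6.99 and 11, and bound proteasome genes of 6.78 and 14, in the same order of measures. RP genes were thus bound in a larger share than all coding genes, while their peaks, where present, were not taller.

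Among the large subunit genes RPL26, whose protein sits near the exit of the nascent chain tunnel, had the highest fold enrichment, 9.89 at a pileup of 17. RPL39L, a paralog of RPL39 known mainly from testis and tumours, followed with 9.15 (pileup 14). RPL13A, whose protein also has a part in translational silencing after interferon, had 8.59 (pileup 16). RPL15, 1 of the genes mutated in Diamond-Blackfan anaemia, had 8.39 (pileup 22), and RPL27A 7.73 (pileup 14). With pileups of 14 to 22 tags the order of these 5 rests on few tags.

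Among the small subunit genes RPS29 had the highest value of all members, 10.37 at a pileup of 27. RPSA, whose product is also known as the laminin receptor, had 9.52 (pileup 19). RPS19, the gene most often mutated in Diamond-Blackfan anaemia, had 8.16 (pileup 15), and RPS27A, which encodes ubiquitin fused to a small subunit protein, had 7.32 (pileup 11). The peak at RPS29 needs a caveat. Its summit lay 372 bp upstream of the canonical RPS29 start, in an intron of a longer RPS29 transcript and inside RN7SL1, a gene for the 7SL RNA of the signal recognition particle that starts 172 bp from the summit on the other strand. 7SL RNA genes have many near-identical copies in the genome, and how reads with several placements were treated was not given in the sources used here. Without this peak 31 of 81 members were bound (38.3%), and the median fold enrichment was 6.94.

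The lowest peaks had pileups of 9 to 13. In the large subunit these were RPL18 with a fold enrichment of 5.10, RPL5, a partner of 5S rRNA that can bind MDM2, with 5.81, and RPL6 with 6.12. In the small subunit they included RPS15 with 5.00 and RPS12 with 5.74. RPS15 stood at the 3.81th percentile of all bound coding genes, and RPS29 at the 90.6th. Between these sets lay RPL21, RPL31, RPLP1, RPL28, RPL22, RPL7, RPL37A, RPL23A and RPL27 in the large subunit and RPS23, RPS27L, RPS14, RPS28 and RPS3A in the small. Of the genes just named, RPS3A had the lowest fold enrichment, 5.81, and RPL21 the highest, 7.43.

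The reference sequence (hg38) around 3 of these summits is shown on the strand of the gene, 5' to 3', ending before the canonical start, to let the reader see what lies under the tallest peaks with and without CCAAT. Capitals mark CCAAT or its complement ATTGG. RPL39L and RPSA had the highest fold enrichment in their subunit among members with CCAAT within 100 bp of the summit, and RPL26 the highest in the large subunit among those without. The RPL39L stretch (chr3:187139713-187139913, minus strand) runs from -417 to -217 bp from the start and lies in an intron of a longer transcript. That of RPL26 (chr17:8383194-8383388, minus strand) runs from -195 to -1, and that of RPSA (chr3:39406569-39406719, plus strand) from -151 to -1.
RPL39L: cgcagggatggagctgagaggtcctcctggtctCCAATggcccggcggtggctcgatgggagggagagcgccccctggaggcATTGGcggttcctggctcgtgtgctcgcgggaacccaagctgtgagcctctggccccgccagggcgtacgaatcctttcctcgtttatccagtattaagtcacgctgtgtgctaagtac
RPL26: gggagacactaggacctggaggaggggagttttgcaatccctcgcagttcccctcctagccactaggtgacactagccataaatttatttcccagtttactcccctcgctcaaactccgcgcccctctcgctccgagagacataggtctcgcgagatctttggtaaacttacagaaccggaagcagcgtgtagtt
RPSA: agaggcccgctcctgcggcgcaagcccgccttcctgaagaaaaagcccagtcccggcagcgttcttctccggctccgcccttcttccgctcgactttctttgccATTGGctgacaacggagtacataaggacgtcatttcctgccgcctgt
The RPL39L stretch holds CCAAT 2 times, 1 time on each strand, and that of RPSA 1 time. That of RPL26 does not hold it, and RPL26 had a higher fold enrichment than RPL39L.

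Most HSF1 summits lay just upstream of the canonical start of the RP gene. The median position was -122.5 bp from the canonical start (interquartile range -298 to -39.5), against -107 bp over all bound coding genes. Upstream of that start lay 29 of 32 summits (90.6%, 75.8% to 96.8%), against 77.1% of all bound coding genes, and 29 of 32 were within 500 bp. The median was -94.5 bp for large and -193 bp for small subunit genes. Counted from the nearest of the gene's own starts, the farthest summit was that of RPS19 at 439 bp, and the nearest summit of any unbound member was at 1.481 kb, so no member lies near the 1 kb limit on either side. Within 100 bp of the canonical start were 14 of 32 summits (43.8%), against 31.8% of all bound coding genes.

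In the annotation 18 of the 32 summits lay outside the RP gene and 15 of these outside every annotated gene. Inside the gene, 7 lay in a UTR, 3 in another exon and 4 in an intron of a transcript with an earlier start. For 25 of 32 summits the nearest annotated start of any gene was that of the RP gene itself (78.1%, against 73.9% of all bound coding genes). The other 7 lay nearer to a neighbour: RPL15 to NKIRAS1, RPL21 to LINC02340, RPL31 to an unnamed gene, RPL6 to PTPN11, RPL18 to SPHK2, RPS29 to RN7SL1 and RPS27A to CLHC1. The summit counted for RPL6 lay in the 5' region of PTPN11, a phosphatase gene, 172 bp from an alternative RPL6 start and -9405 bp from the canonical one. The summit counted for RPL18 was at the very start of SPHK2, a sphingosine kinase gene, 0 bp away. For such pairs the list cannot tell apart which gene the peak belongs to. With each peak given only to the gene with the nearest start, 25 of 81 RP genes were bound (30.9%) against 19.1% of all coding genes.

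A neighbour on the other strand went with HSF1 peaks in the genome at large, and no such difference was resolved among RP genes. Another protein-coding gene started within 1 kb on the other strand of 17 RP genes, and 6 of these 17 were bound (35.3%), against 26 of the 64 without such a neighbour (40.6%). The difference was -5.33 percentage points (-27.1 to 20.6). Among the other protein-coding genes it was 25.6 percentage points (23.7 to 27.6), with 47.5% of all coding genes with such a neighbour bound. The RP interval does not reach that value, but these differences were not tested against each other. Related gene groups varied in the same measure. Proteasome genes were bound in 5 of 12 cases with such a neighbour and 15 of 36 without (41.7% in both), and other TOP and elongation genes in 3 of 6 (50%) and 11 of 16 (68.8%). Mitochondrial ribosomal protein genes were bound in 13 of 29 cases with one (44.8%) and 14 of 49 without (28.6%). On these counts RP genes were not set apart from such groups. RP genes that hold a snoRNA gene inside, 28 of 81 with 60 snoRNA genes in all, were bound in 10 cases (35.7%), and the 53 that hold none in 22 cases (41.5%).

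The 49 unbound members are accounted for by the distance from any of their starts to the nearest HSF1 summit, with a median of 33.9 kb against 88.0 kb for all unbound coding genes. In 5 of them a summit lay between 1 and 5 kb away: RPL41, the gene of the smallest ribosomal protein, at 1.481 kb, RPL4 at 1.661 kb, RPL36 at 3.104 kb, RPL14 at 4.003 kb and RPS21 at 4.235 kb. RPL35, RPL24 and RPS16 followed at 8.93, 9.39 and 9.60 kb. From 10 to 30 kb there were 15, running from RPS9 (10.2 kb) to RPL34 (28.5 kb), with RPL10, RPS15A, RPL7A, RPL36A, RPL10A, RPS7, RPS25, RPL8, RPS27, RPL32, RPLP0 and RPS3 among them. From 30 to 100 kb there were 14, from RPS10 (32.8 kb), RPS4X, RPL37, RPS26, RPL12, RPL29, RPL9, RPS2, RPL11, RPL39, RPL3L, RPL13 and RPL3 to RPLP2 (96.9 kb). The other 12 lay over 100 kb from a summit, from RPS18 (116 kb), RPL35A, RPS20, RPS13, RPS6, RPL19, RPS24, RPL17, RPL38, RPL23 and RPL30 to RPL10L (975 kb).

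Of 17 genes listed by role, 6 were bound (35.3%), near the 39.5% of all RP genes and above the 25.5% of all protein-coding genes, and the list is too short to set roles apart. Of the stalk proteins, which recruit elongation factors, RPLP1 was bound with a fold enrichment of 7.01 (pileup 14), and RPLP0 and RPLP2 were not. Of the large subunit proteins that reach the peptidyl transferase centre or the tunnel, neither RPL3 nor RPL4 was bound, nor was RPL10, which joins late in assembly. RPL5 was bound and its partner RPL11 was not, and RPL23, another protein that can bind MDM2, was not. In the small subunit RPSA, RPS14, RPS19 and RPS27A were bound. RPS14, the gene of the 5q- syndrome, had a fold enrichment of 6.55 (pileup 10). RPS2, RPS3 and RPS6, the last of which is the substrate of S6 kinase, were not bound.

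Members were on 21 chromosomes. Chromosome 19 held 12 of them and 9 were bound, among them RPS15, RPS28, RPS19, RPL18, RPL13A and RPL28, where 411 of all 1476 coding genes of that chromosome were bound. Chromosome 19 thus held 9 of the 32 bound members. The share bound without this chromosome was not computed, so how far the higher share of RP genes rests on it is not known here. Each of the 32 bound members had a summit of its own. On chromosome X none of the 4 members was bound, RPL10, RPL36A, RPL39 and RPS4X, where 122 of 859 coding genes were. With 4 members on X the count allows no statement about that chromosome. Copies of the starts of 3 members, RPS18 and RPS9 among them, on alternate contigs of hg38 held no peak. Reads with 2 placements could have been lost at these genes, of which RPS18 and RPS9 were unbound, and this was not tested.

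Processed pseudogenes of RP genes were counted by the same rule. They copy the messenger and not the promoter, where most RP summits lay, so a low share was to be foreseen and is no check on the call. Of 1568, 11 had an HSF1 summit within 1 kb of a start, or 0.702% (0.392% to 1.25%), and none had an H3K27ac summit. Only 6 of these 11 summits had the pseudogene's own start as the nearest. Peaks at such copies were thus rare beside the 39.5% of RP genes, but no share for other pseudogenes was set beside them.

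H3K27ac marks active promoters and enhancers. The list labelled H3K27ac came from a library that the HSF1 call did not use, and it gave a peak at 9 of 81 RP genes, or 11.1% (5.96% to 19.8%), against 3.32% of all protein-coding genes. The difference from the other coding genes was 7.82 percentage points (2.66 to 16.5). The share was smaller under stricter settings. With a window of 250 bp it was 5 of 81 (6.17%), against 2.51% of all coding genes. With peaks of a -log10 q-value of at least 5 it was 4 of 81 (4.94%), against 1.28%. The large subunit had 7 of 49 and the small subunit 2 of 32, a difference of 8.04 percentage points with an interval from -7.61 to 21.2. Mitochondrial ribosomal protein genes had 6 of 78 (7.69%), proteasome genes 4 of 48 (8.33%) and other TOP and elongation genes 3 of 22 (13.6%).

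The 9 members with H3K27ac included RPL21 (fold enrichment of the H3K27ac peak 8.11, pileup 11), RPL7 (5.13, pileup 7) and RPSA (6.94, pileup 9), which also had HSF1, and RPL41 (6.38, pileup 11), RPL4 (6.76, pileup 9), RPL32 (5.70, pileup 8), RPL35A (6.19, pileup 11) and RPL30 (4.84, pileup 5), which did not. At RPSA the H3K27ac summit was -55 bp from the start and the HSF1 summit -51 bp. The H3K27ac peaks of RPL4 and RPL35A also lie inside ZWILCH and IQCG, genes on the other strand. Over the 9 members the H3K27ac fold enrichment had a median of 6.38, beside 6.17 for all coding genes with such a peak.

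How often genes with H3K27ac were also HSF1-bound depended on the window, on a count of 9 RP genes. Within 1 kb, of all coding genes with an H3K27ac peak 77.6% (74.2% to 80.6%) were HSF1-bound, and of the RP genes 4 of 9 (44.4%, 18.9% to 73.3%), a difference from the other coding genes of -33.6 percentage points (-59.3 to -4.49). Among HSF1-bound genes H3K27ac was found at 4 of 32 RP genes (12.5%) and at 10.1% of all bound coding genes, a difference from the other bound genes of 2.41 percentage points (-5.17 to 18.0). Among unbound genes it was found at 5 of 49 RP genes (10.2%) and at 1% of all unbound coding genes, a difference of 9.23 percentage points (3.46 to 20.8). Unbound mitochondrial ribosomal protein and proteasome genes had H3K27ac in shares of a like size to that of unbound RP genes. Their HSF1-bound shares among genes with H3K27ac rest on 6 and 4 genes, too few to compare. Neither share was tested between RP genes and these families. Of unbound mitochondrial ribosomal protein genes 5 of 51 had H3K27ac (9.80%), and 1 of the 6 with H3K27ac was HSF1-bound. Of unbound proteasome genes 2 of 28 had it (7.14%), and 2 of the 4 with it were bound. The other TOP and elongation genes went the other way, with H3K27ac at 0 of 8 unbound genes and HSF1 at all 3 that had H3K27ac. RPL41 and RPL4, which had H3K27ac and counted as unbound, had an HSF1 summit at 1.48 and 1.66 kb from a start. With a window of 2 kb for both libraries, a comparison chosen after seeing the data, 6 of the 9 RP genes with H3K27ac were HSF1-bound (66.7%), against 76.5% of all coding genes with H3K27ac. That difference from the other coding genes was -9.98 percentage points (-41.4 to 11.5), so the lower share within 1 kb was not resolved at 2 kb. Of the RP genes unbound at 2 kb, 3 of 47 had H3K27ac (6.38%), against 1.13% of all unbound coding genes, a difference of 5.27 percentage points (1.08 to 16.1).

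CCAAT stood at the starts of 24 of 81 RP genes, or 29.6% (20.8% to 40.3%), beside 28.5% of all protein-coding genes. It was sought on both strands from 150 bp upstream to 50 bp downstream of the canonical start. The large subunit had it in 18 of 49 genes (36.7%) and the small in 6 of 32 (18.8%), a difference of 18.0 percentage points (-2.51 to 35.1). The longer form RRCCAATSR, where R is A or G and S is C or G, stood at 14 starts (17.3%), against 11% of all coding genes. RPLP0, which was unbound, had CCAAT 3 times, at -129, -79 and -47 bp, the most of any member.

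Bound RP genes did not have CCAAT more often than unbound ones. It stood at 8 of 32 bound starts (25%), among them those of RPL5, RPL13A, RPL22, RPL23A, RPLP1 and RPSA, and at 16 of 49 unbound starts (32.7%). The difference was -7.65 percentage points (-25.9 to 12.9). Among the other coding genes bound starts had it more often, by 11.2 percentage points (9.69 to 12.7), a value that the RP interval still contains. Within 100 bp of the HSF1 summit CCAAT was found at 8 of 32 RP genes (25%, 13.3% to 42.1%) and at 36.5% of all bound coding genes. The difference from the other bound genes was -11.6 percentage points (-23.4 to 5.54). Those 8 included RPSA, RPL39L, RPL13A, RPS23, RPLP1 and RPL28, and 5 of the 8 also had it at the start. The median fold enrichment of the 8 was 7.12, against 6.62 for the 24 without CCAAT at the summit, and over all bound coding genes these medians were 7.79 and 7.02.

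A pair of unbound starts shows CCAAT where no HSF1 peak was called, and was taken as the alphabetically leading unbound gene with CCAAT of each subunit. The RPL13 stretch (chr16:89560532-89560681, plus strand) and the RPS2 stretch (chr16:1964827-1964976, minus strand) run from -150 to -1 bp of the canonical start on hg38, with capitals as above.
RPL13: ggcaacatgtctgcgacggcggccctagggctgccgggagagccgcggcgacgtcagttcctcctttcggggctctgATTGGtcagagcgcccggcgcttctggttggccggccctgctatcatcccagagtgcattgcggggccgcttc
RPS2: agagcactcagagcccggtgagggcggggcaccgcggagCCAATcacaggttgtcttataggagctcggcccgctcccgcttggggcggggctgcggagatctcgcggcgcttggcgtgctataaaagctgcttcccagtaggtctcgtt
RPL13 holds the complement 1 time and RPS2 the motif 1 time, and the nearest HSF1 summits were 70.035 and 58.503 kb away.

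The heat shock element, taken as 3 inverted GAA units with at most 1 mismatch in 9 fixed bases, was found at none of the 81 RP starts (0 of 81, interval up to 4.53%), beside 2.69% of all protein-coding genes. Within 100 bp of the HSF1 summit it was found at 1 of 32 RP genes (3.13%, 0.554% to 15.7%), beside 2.39% of all bound coding genes. That gene was RPL28, named here after the values were seen. Its stretch (chr19:55385660-55385860, plus strand, hg38) runs from -272 to -72 bp of the start, and here the capitals mark the element, which has 1 mismatch.
RPL28: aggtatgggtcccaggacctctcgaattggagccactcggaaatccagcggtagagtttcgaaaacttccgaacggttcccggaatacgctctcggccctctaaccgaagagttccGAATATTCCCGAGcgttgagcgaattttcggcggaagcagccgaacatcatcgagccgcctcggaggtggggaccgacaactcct
The RPL28 peak (fold enrichment 6.99, pileup 19) stood in the middle of the members by fold enrichment. The stretch also holds 1 ATTGG, left in lower case. At this count RP genes and other bound genes could not be told apart in heat shock elements.

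Of the motifs searched, the one found at most RP starts showed no resolved difference between bound and unbound members. A pyrimidine start, a C at the canonical start or 1 base to either side followed by at least 4 of C or T, was present in 60 of 81 RP genes (74.1%, 63.6% to 82.4%), beside 8.97% of all protein-coding genes. Other TOP and elongation genes had it in 20 of 22 cases (90.9%), mitochondrial ribosomal protein genes in 7 of 78 (8.97%) and proteasome genes in 6 of 48 (12.5%). Among RP genes the pyrimidine start was present in 24 of 32 bound and 36 of 49 unbound members, a difference of 1.53 percentage points (-18.4 to 19.6). The core of ETS factor sites, CCGGAAG, stood at 23 RP starts (28.4%), beside 12.1% of all protein-coding genes, with 9 of 32 among bound and 14 of 49 among unbound members. Mitochondrial ribosomal protein genes had this core in 38.5% of cases, proteasome genes in 37.5% and other TOP and elongation genes in 18.2%. The letters AAGATGGCG, part of sites of YY1 at some starts, stood at 8 RP starts (9.88%), beside 2.62% of all protein-coding genes. Their shares were 15.4% in mitochondrial ribosomal protein genes, 8.33% in proteasome genes and 22.7% in other TOP and elongation genes. The GC box GGGCGG stood at 43 RP starts (53.1%), beside 55.7% of all protein-coding genes. In the same order, the E-box CACGTG stood at 3 (3.70%), beside 6.68%, and TATAAA at 7 (8.64%), beside 7.13%. TGACGTCA, the cyclic AMP response element, stood at 2 RP starts (2.47%), beside 2.34%. A match of letters is not evidence that the factor binds there.

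Genes next to the family in function were counted by the same rule. Among ribosomal proteins under other names and ribosome partners, RPL26L1 (fold enrichment 6.19, pileup 13) and RPL36AL (5.85, pileup 10) were bound, and FAU, RACK1, RPL22L1 and RPL7L1 were not. None of these 6 had H3K27ac. Of the 22 other TOP and elongation genes, the highest peaks were at TPT1, the gene of a translationally controlled tumour protein, with a fold enrichment of 11.2 (pileup 26), at NPM1, the nucleolar chaperone nucleophosmin, with 10.0 (pileup 27), at EIF4B, an initiation factor, with 9.65 (pileup 21), and at EEF1A1, the elongation factor that delivers aminoacyl-tRNA, with 9.24 (pileup 33). The summit counted for TPT1 lay 4 bp from a start of TPT1-AS1, a gene on the other strand, and 192 bp from the nearest TPT1 start. EEF2, the translocation factor, had no peak within 1 kb, and the nearest summit was 6.78 kb away. H3K27ac was present at EIF4B, HNRNPA1 and NAP1L1.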

How the data were processed

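CUT&Tag of untreated Huh7 cells was done with an antibody against HSF1 and with 1 against H3K27ac, 1 library each. The authors called peaks in each library by itself with MACS 2.1.4 (genome hg38, no control) at a p-value cutoff of 1e-05, keeping 1 tag per position, with tags shifted by -100 bp and extended to 200 bp. Bowtie, Picard and deepTools are named in the submitters' processing notes. As deposited, the pileup is an unscaled signal that counts extended tags at the summit, and the fold enrichment is a ratio of pileup to local background, each with 1 added. The -log10 p-value and the -log10 q-value are also deposited as the caller wrote them. The header says that q was not calculated although the column holds values, so q served only as a filter. Identical positions in a library were counted 1 time, and the low share kept in the H3K27ac library limits how many genes can gain a peak.

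Gene starts came from GENCODE release 44. Each gene was given the peak of highest pileup whose summit lay within 1 kb of a transcript start. Motifs were searched on both strands of hg38. Of the members, 64 had a RefSeq promoter entry and 62 of these starts lay within 10 bp of the canonical one. The genes named were the 5 highest and 3 lowest peaks per subunit by fold enrichment, every unbound member, every member with H3K27ac, and lists set by role. Some members that this rule names, and 1 sequence, are not reported here, though they stay in the counts. Members and lists were chosen with earlier results of these data known. The 2 H3K27ac ChIP-seq lists are on another build and were not used here, and the 6 RNA-seq samples were not analysed here. Alternative windows, starts, filters and motif forms were tried. Counting was tested on simulated peaks and sequences, where all 200 planted genes and all 200 planted motifs were found. Python 3.11.15, numpy 2.4.6, pandas 2.3.3, pysam 0.24.0, scipy 1.17.1 and matplotlib 3.10.9 were used.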

Additional observations from a re-analysis of the deposited data

How the results depend on the processing

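Across 67 alternatives for 11 values, 61 lay within the 95% interval of the value reported. The alternatives count largely the same genes and many of the intervals are wide, so this is a weak check. Shares, pileups and fold enrichments cannot change sign, and the intervals of the differences span 0. The median summit position could have changed sign, and it stayed upstream of the start (-96 and -157 bp). The share of RP genes bound ran from 30.4%, with starts that have a gene on the other strand within 1 kb left out, to 42.0% with a window of 2 kb, and it lay above that of all protein-coding genes in all 10 settings where both were computed. For H3K27ac this held in all 9 settings. The values that left their interval were the following. With peaks of a -log10 q-value of at least 5, 4.94% of RP genes had an H3K27ac peak, beside 1.28% of all coding genes. CCAAT stood at 19.8% of RP starts when only the 100 bp upstream were searched, and RRCCAATSR at 17.3%. RRCCAATSR stood at 12.5% of HSF1 summits. RP pseudogenes were bound in 0.255% of cases with a window of 250 bp and in 0.383% with 500 bp. Why these values moved was not tested, but each of these settings uses a stricter motif, a shorter window or fewer peaks. The choice to leave out the peak on RN7SL1, and that to count HSF1 among genes with H3K27ac at 2 kb, were made after seeing the data.

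No paired analysis was possible because each group holds 1 library. The depth, 2712212 tags for HSF1 and 896393 for H3K27ac, limits what an absent peak can say, and pileups of 9 to 27 tags carry large counting error, so the order of members by height was not resolved. Nothing here measures expression, and a peak near a start does not show which gene it serves.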
